A study of Mus musculus with 2 samples.

Results

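The NRF2 antioxidant genes examined here are 10 genes named by symbol, Nfe2l2, Keap1, Nqo1, Gclm, Gclc, Txnrd1, Srxn1, Slc7a11, Gsr and Prdx1. All 10 were found among the 15623 genes listed in either library. Expression was measured by RNA sequencing of macrophages from wild type C57BL/6 mice aged 6 to 8 weeks. The cells were drawn into the peritoneal cavity by 4% thioglycollate over 4 to 5 days, left to adhere for 4 h and then starved in medium with 0.5% FBS, which both groups share. One group was left nontreated (NT) and the other was stimulated for 6 h with mouse interleukin-4 (IL-4), the cytokine that drives alternative (M2) activation. Each group held 1 library, the number of mice behind a library is not given in the sources used here, and no difference could be set against a spread between replicates.

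NRF2, the protein of Nfe2l2, is the transcription factor that switches on genes against oxidants and electrophiles. In resting cells KEAP1 holds NRF2 and hands it to a CUL3 ubiquitin ligase for destruction. When the cysteines of KEAP1 are modified, NRF2 escapes, pairs with a small MAF protein and binds the antioxidant response element (ARE) of its target genes. These targets supply glutathione, the thioredoxin and peroxiredoxin enzymes and quinone reduction, which matter in macrophages because these cells make reactive oxygen species themselves. NRF2 is controlled mainly at the level of protein, so the level of its own RNA is not a measure of its activity.

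The NT library held 11035641 expected counts (the RSEM estimate of the reads of a gene) and the IL-4 library 11250099. At these depths 3 counts equal 0.272 and 0.267 CPM (counts after scaling for library depth). The marker sums below also include genes with fewer counts. All 8 genes of an IL-4 response list were higher in the IL-4 library, with log2 ratios of 3.33 for Mrc1, 4.16 for Retnla, 4.34 for Ccl24, 4.72 for Irf4, 4.92 for Socs1, 6.27 for Chil3 and 7.95 for Arg1, while Cish was listed in the IL-4 library only, at 662 counts. All 6 macrophage markers were detected, with a summed level of 16903 CPM in NT and 17272 CPM in IL-4, a sum carried by Lyz2 and Cd68. Single markers differed, with a log2 ratio of 0.90 for Csf1r, 0.42 for Adgre1 and -0.39 for Fcgr1. Markers of B cells summed to 9.61 and 8.53 CPM, T cells to 1.88 in both, neutrophils to 10.8 and 9.32, eosinophils to 4.80 and 2.49, mast cells to 2.72 and 1.60, and mesothelial cells and fibroblasts to 94.9 and 77.4 CPM. That last sum was carried by Col1a1 and Dcn, while the mesothelial markers Msln and Upk3b were at 1.09 CPM or less in each library. S100a9, Ly6g, Epx, Ccr3 and Fcer1a were at 0 in both libraries, and the part of other cells in the results was not tested. The labels give bone marrow as the tissue but peritoneal macrophages as the source, and these markers do not separate them.

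Across the group, levels were lower in the IL-4 library for most members, and Slc7a11, the cystine transporter, was the clearest exception. The median log2 ratio (IL-4 over NT) was -0.49 over the 10 genes, beside -0.02 over the 11653 genes with at least 20 expected counts in both libraries together. All 10 members passed that filter. A limit of 0.75 on the log2 scale was taken from the study. The rule of the study also set limits on P and the false-discovery rate, which were not applied here. Gsr and Srxn1 were past the 0.75 limit in the lower direction, 2 of 10, beside 8.69% of all genes. In the higher direction 0 of 10 were past it, beside 5.13% of all genes. The share of 2 in 10 rests on a pair of genes, and 1 of them, Srxn1, lay at the limit. By a second rule, chosen after the data were seen, the 95% interval of a gene's ratio was set against 0. It lay below 0 for 6 members, beside 26.4% of all genes, and above 0 for 1 member, beside 23.1% of all genes. More counts narrow an interval, and the members, with 58 to 15353 counts over both libraries, were not matched in depth with all genes. The shares by this rule, here and for the lists below, are therefore not like for like. The intervals come from the exact binomial (Clopper-Pearson) limits on how a gene's reads divide between the libraries. They cover counting error only, and PCR reads are not independent molecules, so the variation between cultures or animals would come on top. In bulk RNA, fewer expressing cells and less RNA per cell cannot be told apart.

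**Figure D1:**
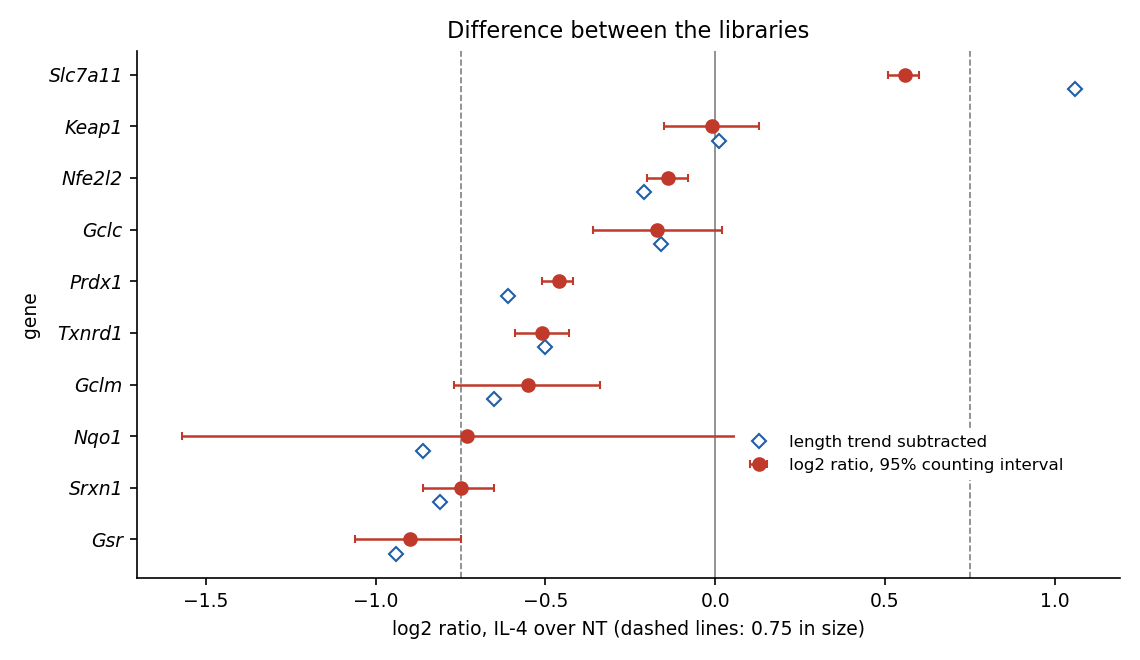
Log2 ratio of IL-4 over NT (horizontal axis) for each of the 10 genes (vertical axis), with filled points for the ratio of scaled counts, bars for the 95% counting interval and open diamonds for the ratio after the median of 500 genes of like length was subtracted. Dashed lines mark 0.75 in size. Slc7a11 is the 1 gene with its interval above 0, at 0.56, and Gsr lies lowest at -0.90.

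Per transcript length, the members spanned a wide range of levels, in FPKM (fragments scaled for transcript length and library depth). In the NT library Prdx1 was highest at 569 FPKM, followed by Nfe2l2 at 163, Txnrd1 at 78.5, Srxn1 at 61.4, Slc7a11 at 56.8, Gsr at 32.2, Keap1 at 23.2, Gclm at 19.4, Gclc at 12.8 and Nqo1 at 2.11 FPKM. The counting intervals of neighbours in this order did not overlap. In the IL-4 library Prdx1 and Nfe2l2 kept the first places, whereas Slc7a11 moved from place 5 to place 3 and Keap1 stood above Gsr. Gclm and Gclc, at 13.2 and 11.4 FPKM, were the only neighbours in the IL-4 order whose intervals overlapped, from 11.8 to 14.8 and from 10.4 to 12.5.

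**Figure D2:**
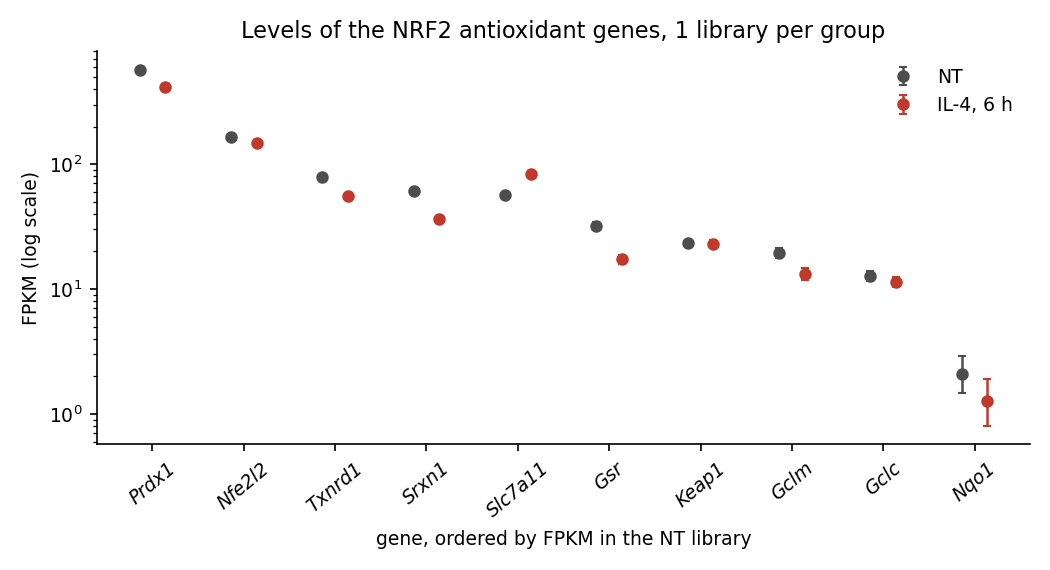
FPKM on a log scale (vertical axis) of the 10 genes (horizontal axis, ordered by the NT level) in the NT library (grey) and the IL-4 library (red), each point 1 library and each bar a 95% Poisson counting interval. Slc7a11 is the gene whose IL-4 point stands clearly above its NT point, at 83.5 against 56.8 FPKM.

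The ARE is a short DNA element, and its core was searched as TGACNNNGC on both strands of the RefSeq promoters (GRCm38.p6), which run from 250 bases before to 50 bases after a transcript start. The AP-1 element TGACTCA, which can share letters with it, was searched likewise. The table held promoters for 8 of the 10 genes (not Gclc or Gsr), in 10 windows, since Txnrd1 has 3 starts there. The core was found for 5 of the 8 genes, in Nfe2l2, Gclm, Txnrd1 (1 of its 3 windows), Srxn1 and Prdx1. By window this was 5 of the 10, beside 12.4% of all 32851 promoters of that length. TGACTCA was found for Srxn1 and Prdx1, 2 of the 10 windows, beside 5.2% of all promoters. A match is a description of the letters and not a bound site. Other forms of the core were not searched, and the windows do not reach elements farther away.

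The promoters of Srxn1, Prdx1, Gclm and Txnrd1 are shown because they hold the core and belong to genes that were lower in the IL-4 library. That of Slc7a11 is shown because this gene was higher and its window holds no match. Not shown are the promoters of Nfe2l2, which holds the core (ratio of -0.14), and of Nqo1 and Keap1, which hold no match (-0.73 and -0.01). Whether a match goes with the direction of the ratio was not tested. The table gives 1 window for Slc7a11, which lies inside the span of the gene given below, so the 5′ end of that span, farther upstream, was not searched. Each is written 5′ to 3′ along the strand of the gene, with matches to either element in capitals.
Srxn1, chr2:152105274-152105573, plus strand: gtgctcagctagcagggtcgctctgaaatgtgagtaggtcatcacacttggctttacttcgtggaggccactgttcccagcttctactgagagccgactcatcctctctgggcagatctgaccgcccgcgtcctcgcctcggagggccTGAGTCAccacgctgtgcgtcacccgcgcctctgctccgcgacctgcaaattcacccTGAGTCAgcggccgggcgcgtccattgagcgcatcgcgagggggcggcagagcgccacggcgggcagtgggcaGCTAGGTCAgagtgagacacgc
Prdx1, chr4:116685349-116685648, plus strand: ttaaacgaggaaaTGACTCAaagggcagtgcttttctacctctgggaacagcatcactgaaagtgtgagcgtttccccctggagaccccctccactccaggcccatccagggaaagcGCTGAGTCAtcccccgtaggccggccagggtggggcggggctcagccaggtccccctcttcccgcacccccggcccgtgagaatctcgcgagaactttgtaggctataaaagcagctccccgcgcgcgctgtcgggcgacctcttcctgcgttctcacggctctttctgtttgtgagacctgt
Gclm, chr3:122245307-122245606, plus strand: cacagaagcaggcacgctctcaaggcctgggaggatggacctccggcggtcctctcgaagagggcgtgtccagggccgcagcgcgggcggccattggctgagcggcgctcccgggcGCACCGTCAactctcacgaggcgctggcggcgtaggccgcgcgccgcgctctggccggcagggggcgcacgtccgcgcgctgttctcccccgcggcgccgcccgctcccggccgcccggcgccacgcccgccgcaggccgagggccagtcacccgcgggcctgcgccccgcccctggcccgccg
Txnrd1, chr10:82858956-82859255, plus strand: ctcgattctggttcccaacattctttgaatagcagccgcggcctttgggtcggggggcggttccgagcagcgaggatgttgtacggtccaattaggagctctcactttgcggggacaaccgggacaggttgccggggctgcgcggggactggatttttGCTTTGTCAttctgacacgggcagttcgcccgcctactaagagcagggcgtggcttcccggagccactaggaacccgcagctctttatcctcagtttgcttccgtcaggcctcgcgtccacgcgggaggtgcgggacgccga
Slc7a11, chr3:50443564-50443863, minus strand: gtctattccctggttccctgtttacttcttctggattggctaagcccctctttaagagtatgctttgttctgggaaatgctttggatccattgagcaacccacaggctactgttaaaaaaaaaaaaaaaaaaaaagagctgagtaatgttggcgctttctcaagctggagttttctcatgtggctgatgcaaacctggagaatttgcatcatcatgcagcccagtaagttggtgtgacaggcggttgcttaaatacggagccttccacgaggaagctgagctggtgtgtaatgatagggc
Positions below are those of the first base of a match along the strand of the gene, whichever strand the element reads on. In Prdx1 the core began 133 bases before the start and overlapped a TGACTCA match. Such an overlap was found in 149 of the 4071 promoters that hold the core. Another TGACTCA of Prdx1 began 237 bases before the start. In Srxn1 the match to the searched form of the core began 28 bases after the start. Its TGACTCA matches, at 102 and 45 bases before the start, did not overlap that match. Whether they overlap another form of the core was not searched. The core of Gclm began 134 bases before the start, that of the Txnrd1 window shown 92 bases before, and that of Nfe2l2 240 bases before. The cores of Prdx1, Srxn1, Gclm and Txnrd1 read on the opposite strand, and that of Nfe2l2 on the strand of the gene.

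The factor and its sensor differed little between the libraries. Nfe2l2 (gene 18024, chromosome 2, 75675513 to 75704663, GRCm38) had 4517 expected counts in NT and 4186 in IL-4, or 163 and 149 FPKM. Its log2 ratio was -0.14, with an interval from -0.20 to -0.08, a level 9.09% lower in IL-4. Keap1 (gene 50868, chromosome 9, 21229730 to 21239332) had 840 counts in NT and 851 in IL-4, or 23.2 and 23.0 FPKM. Its log2 ratio of -0.01 had an interval from -0.15 to 0.13, so a difference larger than that was not seen within counting error. The FPKM of Nfe2l2 was 7.04 times that of Keap1 in NT and 6.45 times in IL-4. Both genes lay well within the 0.75 limit under every alternative run, and 38.9% of all genes had the ratio of Nfe2l2 or a lower one.

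The genes around NRF2 were examined as a list of 11 control partners. Of these, 1 was past the limit in the higher direction and 0 in the lower, beside 5.13% and 8.69% of all genes. Maff, a small MAF protein that pairs with NRF2, was that gene, with 59 counts in NT and 131 in IL-4, or 1.12 on the log2 scale (interval from 0.67 to 1.59). The related Mafg was not past it, with 303 and 290 counts and a ratio of -0.09. Bach1, a repressor that competes for the same DNA element, had 1455 and 1437 counts, a ratio of -0.05. Cul3, the ligase scaffold used by KEAP1, had a ratio of -0.16 (1208 and 1100 counts). Sqstm1 encodes p62, which draws KEAP1 into autophagy and is itself a target of NRF2, and it was close to level at 7419 and 7604 counts, a ratio of 0.01. The median ratio of the list was -0.06.

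Glutathione is made from cysteine, glutamate and glycine, and the members that act in its supply differed in direction. Slc7a11 (gene 26570, chromosome 3, 50364936 to 50499087) encodes xCT, the exchanger that brings in cystine as the source of cysteine. It had 5866 expected counts in NT and 8792 in IL-4, or 56.8 and 83.5 FPKM. Its log2 ratio was 0.56 (interval from 0.51 to 0.60), a level 47.0% higher in IL-4 but under the limit of 0.75. Of all genes, 91.6% lay at or below this ratio. Slc3a2, the heavy chain that xCT needs at the membrane, was also higher, with 3993 and 5793 counts and a ratio of 0.51 (interval from 0.45 to 0.57). The FPKM of Slc7a11 relative to Slc3a2 was 0.406 in NT and 0.419 in IL-4. With the median of genes of like length subtracted, a step described below, the ratios were further apart, 1.06 for Slc7a11 and 0.46 for Slc3a2.

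Gclc and Gclm encode the catalytic and the modifier subunit of glutamate-cysteine ligase, the rate-limiting enzyme of glutathione synthesis. Gclc (gene 14629, chromosome 9, 77754535 to 77794489) had 490 counts in NT and 445 in IL-4, or 12.8 and 11.4 FPKM, and its ratio of -0.17 had an interval from -0.36 to 0.02. Gclm (gene 14630, chromosome 3, 122245487 to 122267215) had 443 and 308 counts, or 19.4 and 13.2 FPKM, and its ratio of -0.55 had an interval from -0.77 to -0.34. The modifier subunit was therefore 31.8% lower in IL-4, within the 0.75 limit, while the interval of the catalytic subunit included 0. The FPKM of Gclc relative to Gclm was 0.661 in NT and 0.864 in IL-4. Relative to Gclc, the FPKM of Slc7a11 was 4.44 in NT and 7.32 in IL-4. Gss, the enzyme of the final step of synthesis, had 140 counts in NT and 132 in IL-4, a ratio of -0.11 whose interval included 0.

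Gsr had the lowest ratio of the 10. This gene (gene 14782, chromosome 8, 33653238 to 33698162) encodes glutathione reductase, which uses NADPH to return oxidized glutathione to its reduced form. It had 961 counts in NT and 525 in IL-4, or 32.2 and 17.3 FPKM, a level 46.4% lower. Its log2 ratio of -0.90 had an interval from -1.06 to -0.75, and 5.77% of all genes were as low or lower. Gsr was past the 0.75 limit under each scaling and each added constant run, with ratios from -0.94 to -0.86, but not at a limit of 1.

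The thioredoxin and peroxiredoxin members were all lower in IL-4. Txnrd1 (gene 50493, chromosome 10, 82833951 to 82897724), the cytosolic selenoenzyme that reduces thioredoxin, had 2981 counts in NT and 2137 in IL-4, or 78.5 and 55.2 FPKM. Its ratio was -0.51 (interval from -0.59 to -0.43), a level 29.7% lower. Prdx1 (gene 18477, chromosome 4, 116685599 to 116700000), an abundant peroxidase that removes hydrogen peroxide, had 8830 and 6523 counts, or 569 and 412 FPKM. Its ratio of -0.46 had a narrow interval from -0.51 to -0.42, and its level was 27.5% lower. Neither gene was past the limit of 0.75.

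Srxn1 (gene 76650, chromosome 2, 152105524 to 152111376) encodes sulfiredoxin, which repairs peroxiredoxins that have been overoxidized. It had 1926 counts in NT and 1164 in IL-4, or 61.4 and 36.4 FPKM, a level 40.7% lower. Its ratio of -0.75 lay just past the limit before rounding, and its interval, from -0.86 to -0.65, spans the limit. With TMM or median-of-ratios scaling, or in FPKM with 1 added, Srxn1 was no longer past the limit, although its ratio moved only between -0.81 and -0.72 over all alternatives. The FPKM of Prdx1 was 9.27 times that of Srxn1 in NT and 11.3 times in IL-4.

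Nqo1 (gene 18104, chromosome 8, 107388225 to 107403205), the quinone reductase often used as a readout of NRF2, was the least abundant member. It had 36 counts in NT and 22 in IL-4, or 2.11 and 1.27 FPKM. Its ratio of -0.73 stood just under the limit, but the interval from -1.57 to 0.07 included 0, so a difference was not detectable at this depth. By level, Nqo1 contributed 58 of the counts of these genes, against 15353 for Prdx1.

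A further 20 NRF2 target genes outside the group gave a less shifted picture, with a median ratio of -0.14. Of these, 18 passed the filter. Past the limit were 0 in the higher direction and 1, Me1, in the lower, beside 5.13% and 8.69% of all genes. Me1 had 33 counts in NT and 18 in IL-4 and a ratio of -0.88 (interval from -1.82 to -0.03). Among the 18 genes, intervals lay below 0 for 8 and above 0 for 3, beside 26.4% and 23.1% of all genes, shares not matched for depth. Hmox1, the heme oxygenase that NRF2 and BACH1 control in opposite directions, had 3534 and 3444 counts, a ratio of -0.06. Fth1, the ferritin heavy chain, was named after its value was seen and stood just under the limit at -0.73, with 266575 counts in NT and 164002 in IL-4. Also named after their values were seen, G6pdx and Pgd, which make NADPH in the pentose phosphate pathway, had ratios of -0.30 and -0.33. Named in the same way from the other end of the list, with ratios near or above 0, were Tkt of the pentose phosphate pathway at -0.02, Ftl1, the ferritin light chain, at 0.01, Mgst1 at 0.24 (interval from 0.14 to 0.34) and Cbr3 at 0.63 (interval from 0.21 to 1.07).

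Among 24 other genes of the glutathione and thioredoxin systems, 22 passed the filter, 1 was past the limit in the higher direction and 2 in the lower, shares close to the 5.13% and 8.69% of all genes, with a median ratio of -0.10. Glrx, a glutaredoxin that removes glutathione from proteins, had 270 counts in NT and 1056 in IL-4, a ratio of 1.94 (interval from 1.75 to 2.14). Msrb1, a selenoprotein that repairs oxidized methionine, had 2588 and 950 counts, a ratio of -1.47 (interval from -1.58 to -1.37). Gpx3, the secreted glutathione peroxidase, had 209 and 122 counts, a ratio of -0.80. The glutathione peroxidases differed among themselves, since Gpx4, which protects membrane lipids, had 3540 and 5041 counts and a ratio of 0.48, and Gpx1 had a ratio of -0.26. Txn1, the substrate of Txnrd1, had a ratio of -0.28, and the mitochondrial reductase Txnrd2 had 221 and 260 counts, a ratio of 0.21 whose interval included 0. Prdx1 was the lowest of the 6 peroxiredoxins, as Prdx2 to Prdx6, named after their values were seen, had ratios from -0.10 to 0.27.

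Slc7a11 is known as a target of ATF4, the factor of the amino acid and stress response, as well as of NRF2, and a list of 11 genes of that response was examined beside it. All 11 had intervals above 0, beside 23.1% of all genes, a share not matched for depth. Past the limit in the higher direction were 8, beside 5.13%. The median ratio of the list was 1.15. Phgdh, the entry enzyme of serine synthesis, had 426 counts in NT and 1517 in IL-4, a ratio of 1.80. Slc7a5, the large neutral amino acid transporter that also pairs with Slc3a2, had 145 and 461 counts, a ratio of 1.64. Psat1, Asns, Trib3, Chac1, Ddit3 and Mthfd2 had ratios from 1.12 to 1.26. Chac1 degrades glutathione, and its levels were 2.47 FPKM in NT and 5.53 FPKM in IL-4. Atf4 itself, likewise named after its value was seen, had 2880 and 4833 counts, a ratio of 0.72 that was under the limit. The ratio of Slc7a11, 0.56, lay below the median of this list. With the median of 500 genes of like length subtracted it was 1.06, just above the list median of 1.03. With 100 such genes it was 0.93, and the list median was not taken at that setting. The ratio of Slc7a11 was above that of every other NRF2 member in each case. Which factor stands behind its ratio was not tested, and the list was chosen with earlier results of these data known.

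**Figure D3:**
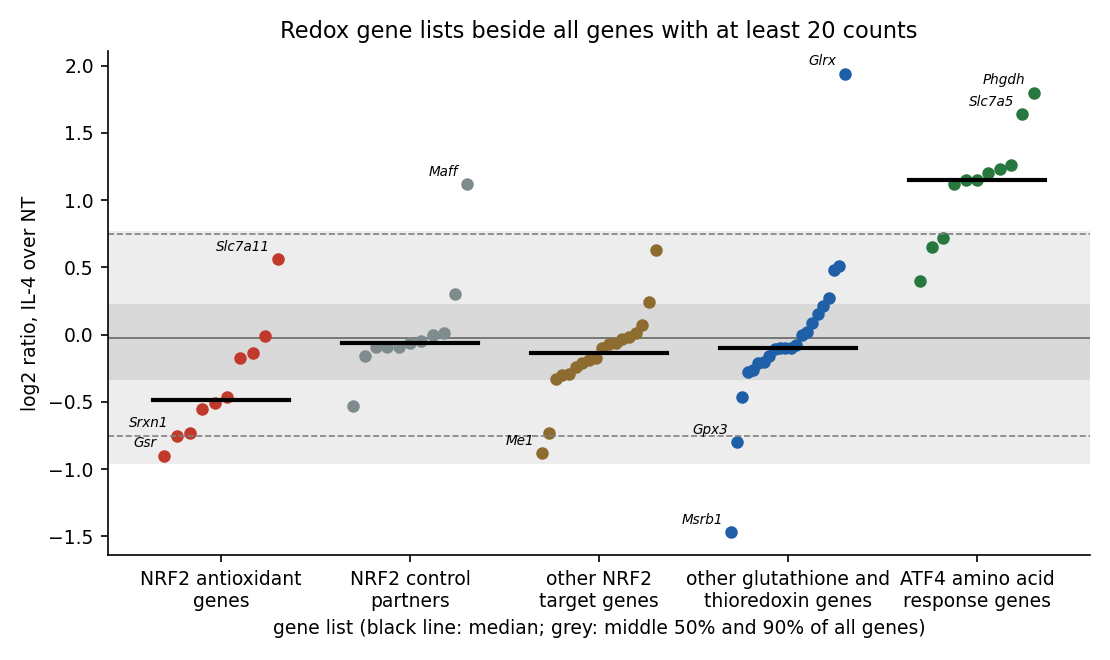
Log2 ratio of IL-4 over NT (vertical axis) for the genes of 5 lists with at least 20 counts (horizontal axis), 1 point per gene, black lines for list medians and grey bands for the middle 50% and 90% of all genes. The NRF2 antioxidant genes have a median of -0.49 and the ATF4 genes 1.15, with Slc7a11 between them at 0.56. With the length trend subtracted (not drawn) these values are -0.55, 1.03 and 1.06, so that Slc7a11 is then just above the ATF4 median. That trend uses 500 genes of like length, and with 100 such genes Slc7a11 is at 0.93.

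Long transcripts tended to be lower in the IL-4 library, which touches Slc7a11 most among the members. Across 8461 genes with at least 200 counts, the median ratio was 0.18 in the 10% with the shortest transcripts and -0.44 in the 10% with the longest. The transcript of Slc7a11, at 9227 bases, was the longest of the 10, and the genes set beside it, the 500 longest (from 7262 bases), had a median ratio of -0.51. With that median subtracted, the ratio of Slc7a11 was 1.06, past the limit, and with 100 neighbours in place of 500 it was 0.93. The members with intervals below 0 had transcripts from 1417 bases (Prdx1) to 3415 bases (Txnrd1). Among the shorter members the subtraction gave -0.94 for Gsr, -0.86 for Nqo1, -0.81 for Srxn1, -0.65 for Gclm and -0.61 for Prdx1. Thus 3 members were past the limit in the lower direction after the subtraction, beside 6.67% of all genes, and 1 in the higher, beside 5.13%. With 1 library per group, a difference in library preparation and a response to IL-4 cannot be told apart in this trend.

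**Figure D4:**
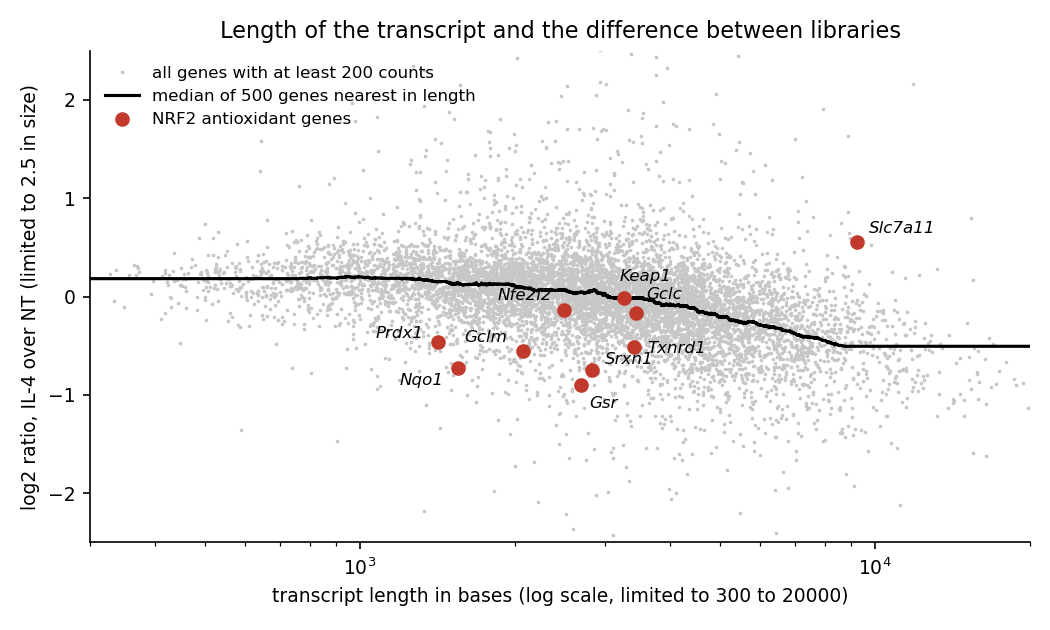
Log2 ratio of IL-4 over NT (vertical axis, limited to 2.5 in size) against transcript length in bases (horizontal axis, log scale), with grey points for all genes with at least 200 counts, a black line for the median of the 500 genes nearest in length and red points for the 10 members. Slc7a11 lies above the line at a length where the median is -0.51, and Gsr, Srxn1 and Nqo1 lie below the line at shorter lengths.

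Expected counts were whole in both libraries for every member except Slc7a11, whose counts of 5866.1 and 8792.33 include shares of reads that match elsewhere, and how many such reads entered was not measured. Weighted transcript lengths, which move when the use of transcripts changes, differed between libraries by 0.123% for Keap1 and by less for Nfe2l2 and Txnrd1. For the other members the length was the same in both libraries, which by itself does not show how many transcripts they have. In the GENCODE M21 annotation, exons of Keap1 and Gclm overlap exons of Gm16754, Gm17494 and Gm6061, none of which was listed in either library.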

How the data were processed

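Column-purified total RNA was sequenced by BGI on an Illumina HiSeq, per the labels. Bowtie was used for mapping to GRCm38/mm10 and RSEM for the level of each gene, with versions not given in the sources used here. The deposited expected counts are not scaled for depth, and RSEM divides a read that fits several transcripts between them. The authors also deposited FPKM values, scaled for length and depth, and a transcript length for each gene. A gene absent from a table was set to 0. NCBI gene numbers were matched to symbols and coordinates in a RefSeq table for GRCm38.p6 (15587 of 15623 matched).

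The log2 ratio compared counts scaled to library totals, with 0.5 count added in each library. With 1 library per group no test was made and no p-value is given. Intervals are 95% Clopper-Pearson intervals from rounded counts, or Poisson intervals for a level. The computations were tested on simulated data. Alternatives were TMM (edgeR 4.0.16) and median-of-ratios scaling (DESeq2 1.42.0), 5 counts added, library totals that leave out the 100 genes with most counts, FPKM with 0.1 or 1 added, subtraction of a length trend, and other limits and filters. The text names all members, the genes of the pathway lists past the limit, and partners in the same steps (Slc3a2, Gss, Gpx1, Gpx4, Txn1, Txnrd2, Bach1, Cul3, Sqstm1, Mafg and Hmox1). Others, chosen after their values were seen, are Fth1, Ftl1, G6pdx, Pgd, Tkt, Mgst1, Cbr3, Atf4, Prdx2 to Prdx6 and the cell type markers named singly. The members and lists were chosen with earlier results of these data known. Software was R 4.3.3 and Python 3.11.15 with pandas 2.3.3, numpy 2.4.6, matplotlib 3.10.9 and scipy 1.17.1.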

Additional observations from a re-analysis of the deposited data

How the results depend on the processing

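No paired analysis was possible because there was 1 library in each group. The main values were 2 members lower and 0 higher past the limit of 0.75, a member median of -0.49, and 598 genes higher and 1013 lower among all genes. The members lower numbered 1 (Gsr) with TMM scaling (7.87% of all genes), with median-of-ratios scaling (8.08%) and in FPKM with 1 added (3.34%), and 0 at a log2 limit of 1 (4.39%). They numbered 3 (Nqo1, Srxn1 and Gsr) at a fold over 1.5 (13.1%) and with the length trend of 500 or 100 neighbours subtracted (6.67% and 6.63%). Subtracting the length trend gave 1 member higher, Slc7a11, with a member median of -0.55, or -0.56 with 100 neighbours in place of 500, an alternative chosen after seeing the data. Under the interval rule, also chosen after seeing the data, 1 member was higher and 6 were lower, and among all genes 2695 were higher and 3082 lower. Over the other alternatives the member median ran from -0.51 to -0.45.

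Among all genes, FPKM with 1 added gave 370 higher and 389 lower, since an added constant shrinks the ratios of low genes. A log2 limit of 1 gave 511 lower and a fold over 1.5 gave 901 higher and 1528 lower. No filter on low counts gave 1665 higher and 2560 lower, and at least 200 counts gave 303 higher and 492 lower, as the number of genes entered changed. Of the values for single members and lists, 187 stayed within their interval or within 1.5 times and 23 did not. That tally includes list counts that were empty and stayed so, and IL-4 response genes far past the limit. It is therefore not a measure of robustness. For the remaining changes the cause was not tested. The depth limits Nqo1, with 36 and 22 counts.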
